A study of Mus musculus with 24 samples.

Results

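The aldehyde dehydrogenase family was examined in cerebellum, brainstem and liver of CAG42 and WT mice through 10 genes, Aldh2 and 9 relatives, out of 17097 genes named on the arrays. All probe sets that the platform annotation assigned to 1 of these genes were taken, which gave 15 of the 45037 tested probe sets: 3 for Aldh2, 3 for Aldh7a1, 2 for Aldh18a1 and 1 for each of the other 7. The group was chosen by the lower CAG42 than WT value of 1 probe set of Aldh2, so that the CAG42 against WT values of Aldh2 are given below as a description without a test. CAG42 mice were homozygous for an allele (Atxn2 Knock-In in the labels) in which a stretch of 42 CAG triplets stood in the first exon of Atxn2 and was driven by the endogenous mouse promoter. WT mice were littermates without it. All mice were 18 months old, the line had been crossed to C57BL/6 for at least 8 generations, and the knock-in had been made in embryonic stem cells of another strain, so that differences between strains in the segment around Atxn2 and the CAG42 allele itself cannot be told apart in these groups. Arrays of 4 CAG42 and 4 WT mice were measured in each of the 3 tissues, 24 arrays in all. Values are RMA values on the log2 scale, on which a difference of 1 is a doubling. Levels are compared only within a probe set, since probe sets differ in how strongly they bind.

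Aldehyde dehydrogenases oxidise reactive aldehydes to acids with NAD or NADP as the electron acceptor. ALDH2 sits in the mitochondrial matrix and clears acetaldehyde from alcohol breakdown and aldehydes from lipid peroxidation, and ALDH1B1 is its close mitochondrial relative. ALDH1A1 oxidises retinaldehyde to retinoic acid in the cytosol, and ALDH3A2 takes long-chain fatty aldehydes. Several members act within amino acid pathways: ALDH4A1 in proline breakdown, ALDH5A1 in the breakdown of the neurotransmitter GABA, ALDH6A1 in valine breakdown and ALDH7A1 in lysine breakdown. ALDH9A1 oxidises an intermediate of carnitine synthesis, and ALDH18A1 runs in the opposite sense, as the reductive enzyme that starts proline synthesis.

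The tissues matched their labels: the mean level of 8 hepatocyte markers lay between 13.1 and 13.2 on all liver arrays and at most at 4.99 on the brain arrays, and 6 cerebellar neuron markers averaged 11.3 to 11.7 in cerebellum and at most 8.39 in brainstem. No marker of any of 9 cell type lists was called between CAG42 and WT mice in any tissue. The median CAG42 minus WT difference of 6 choroid plexus markers was nevertheless 0.77 in cerebellum, with 3 of 6 at an unadjusted p under 0.05 and a mean level of 5.68 to 6.39 in CAG42 and 4.39 to 6.20 in WT mice. That of 2 erythrocyte markers was 0.67 in cerebellum (mean level 8.76 to 9.41 in CAG42 and 8.10 to 9.23 in WT mice) and 0.69 in brainstem (9.19 to 10.17 in CAG42 and 8.52 to 9.80 in WT mice), and 0.32 in liver (8.93 to 9.45 in CAG42 and 8.36 to 9.47 in WT mice; Hba-a1 0.42, unadjusted p = 0.0447 in limma). Smaller differences in 1 direction were seen in other lists. In cerebellum all 6 microglia and macrophage markers were above 0 (median 0.21) and all 6 cerebellar neuron markers below 0 (median -0.05). In brainstem all 5 oligodendrocyte markers were above 0 (median 0.15). The part of these cell types in the values below was not tested. WT liver replicate 1 stood apart from the other 7 liver arrays, with which it correlated at r = 0.954 to 0.982 over all probe sets, against 0.975 to 0.994 among those 7. In tissue homogenates, fewer cells of a type and less RNA per cell cannot be told apart.

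Aldh2 was far higher in liver than in either brain region by all 3 probe sets. By 1448143_PM_at, which stands for a RefSeq transcript of the gene, the 4 WT livers had 12.08, 11.83, 11.82 and 12.06, against 8.89, 9.04, 9.08 and 8.87 in WT cerebellum and 9.21, 9.25, 9.11 and 9.12 in WT brainstem. Every liver thus lay well above every brain sample. The difference was 2.98 on the log2 scale for liver minus cerebellum (standard error 0.081, 7.87-fold, adjusted p = 2.7e-20 in limma) and 2.77 for liver minus brainstem (6.84-fold, adjusted p = 1.1e-19). The other probe sets, 1437410_PM_at and 1457155_PM_at, gave 2.18 and 2.16 for liver minus cerebellum, but 2.11 and 1.16 for liver minus brainstem. The brain regions were less clearly apart. Cerebellum was below brainstem by 1.00 in 1457155_PM_at (adjusted p = 5.9e-08) and by 0.20 in 1448143_PM_at (adjusted p = 0.0451), while 1437410_PM_at differed by -0.06 (adjusted p = 0.737). The WT values of 1457155_PM_at also enter the genotype difference that led to the choice of the gene. Its WT tissue differences are therefore not independent of that choice, and in CAG42 mice its cerebellum minus brainstem difference was -0.36. The smaller call of 1448143_PM_at was lost with the replicate number as a block (adjusted p = 0.0723) and after centring each array on its median (-0.11, adjusted p = 0.341), and in 13 of the 24 fits that left out 1 array (adjusted p up to 0.134).

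**Figure D1:**
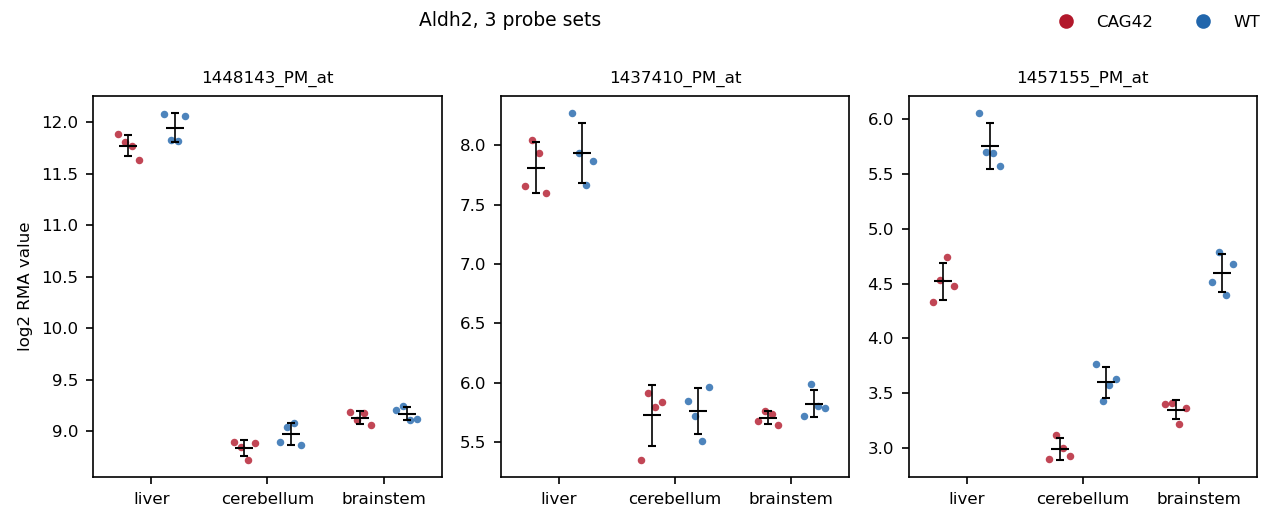
Log2 RMA values of the 3 Aldh2 probe sets on every array, by tissue, with CAG42 mice (red) left of WT mice (blue); points are mice, bars the mean and SD of 4. In 1457155_PM_at the CAG42 points lie below all WT points of the same tissue, whereas the genotypes overlap in every tissue in the other 2.

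Between genotypes, the 3 Aldh2 probe sets differed widely in size. The annotated records of 1457155_PM_at and 1437410_PM_at are not RefSeq transcripts of the gene. The dimmest, 1457155_PM_at, had 4.34, 4.53, 4.74 and 4.48 in livers of CAG42 mice, against 6.06, 5.70, 5.69 and 5.57 in WT livers. In cerebellum it had 2.90, 3.12, 3.0 and 2.93 in CAG42 mice, against 3.77, 3.43, 3.58 and 3.63 in WT mice. In brainstem the values were 3.41, 3.41, 3.22 and 3.37 in CAG42 mice, against 4.52, 4.79, 4.40 and 4.68 in WT mice. The highest CAG42 mouse stayed under the lowest WT mouse in each tissue, and the mean differences were -1.23 in liver, -0.61 in cerebellum and -1.25 in brainstem. The values in liver, an organ outside the nervous system, were thus as far apart as those in brainstem. Arrays of different tissues may come from the same mice, so that the tissues are not independent observations. Of all 45037 probe sets, 4 were below WT without overlap in every tissue (0.00888%): this one, 1 of P2rx7, an ATP-gated ion channel on the same chromosome, and 2 without a gene name. Because this pattern led to the choice of the gene, no test is attached to it.

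The bright probe set 1448143_PM_at had 11.88, 11.81, 11.76 and 11.63 in livers of CAG42 mice, against 12.08, 11.83, 11.82 and 12.06 in WT livers. The groups overlapped there, and the means differed by -0.17, with -0.13 in cerebellum and -0.04 in brainstem. By 1437410_PM_at the genotype differences were -0.13 in liver, -0.03 in cerebellum and -0.12 in brainstem. The mean of the 3 probe sets was lower in CAG42 mice by 0.51 in liver, 0.26 in cerebellum and 0.47 in brainstem, values that came mainly from 1457155_PM_at. A filter on dim probe sets removed 1457155_PM_at. Over the other alternative settings of the fit, gene means apart, the difference of 1457155_PM_at ran between -1.31 and -1.10 in liver, between -0.67 and -0.56 in cerebellum and between -1.31 and -1.18 in brainstem. Since this difference led to the choice of the gene, its range is a description and no support for it.

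The 3 Aldh2 probe sets followed each other unevenly from array to array. After the mean of each group had been subtracted, 1448143_PM_at and 1457155_PM_at had a Pearson r of -0.03 (Spearman rho -0.10) over the 24 arrays, and 1448143_PM_at and 1437410_PM_at had 0.07. The pair 1437410_PM_at and 1457155_PM_at had 0.60 (rho 0.60), and 0.50 without the 2 arrays farthest from the median. Over deviations from the tissue mean, which hold the genotype difference too, 1448143_PM_at and 1457155_PM_at had 0.48, and within the 8 livers 1448143_PM_at had 0.63 with 1457155_PM_at and 0.57 with 1437410_PM_at (0.24 and -0.18 without the 2 farthest arrays). In the same order, these pairs had 0.46 and -0.43 within the 8 cerebellum arrays (0.17 and -0.37 without the 2 farthest). Within the 8 brainstem arrays they had 0.37 and 0.50 (-0.16 and -0.85 without the 2 farthest). Arrays of different tissues may come from the same mice, so that the 24 points are not independent, and the correlations are a description.

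Aldh2 lies on chromosome 5, as Atxn2 does, and in the GRCm38.p6 gene annotation 3 protein-coding genes, Acad12, Acad10 and Brap, stand between them. The probe sets whose deviations from the tissue mean were most like those of Aldh2 differed by probe set. These deviations still hold the difference between CAG42 and WT mice by which 1457155_PM_at was chosen, so that likeness to it restates that difference, P2rx7 being also among the 4 probe sets below WT in every tissue. For 1457155_PM_at they were P2rx7 (chromosome 5, r = 0.851 over 24 arrays), D11Wsu47e (chromosome 11, r = 0.794) and 3 probe sets without a gene name (r = 0.793 to 0.836). For 1448143_PM_at they were Zfp319 (r = 0.842), Cpt2, a mitochondrial carnitine palmitoyltransferase (r = 0.831), Swap70 (r = 0.784), P2ry1 (r = 0.774) and 1 unnamed probe set. Atg7, Glod4 and Tfam headed the named ones for 1437410_PM_at, with r between 0.801 and 0.854. No gene was among the 5 most alike of more than 1 Aldh2 probe set.

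Over the whole family, liver was the tissue of highest level for most members. In WT mice, 14 of 15 probe sets were called between liver and cerebellum, 12 higher and 2 lower in liver, where 81.8% of all probe sets were called (37.3% higher, 44.4% lower). Between liver and brainstem 13 were called, 11 higher and 2 lower, against 80.8% of all (34.3% higher, 46.5% lower). A call by itself was therefore common. The median difference over the 15 was 2.16 for liver minus cerebellum and 1.16 for liver minus brainstem, where the median of all probe sets was -0.08 and -0.16. Liver arrays had lower medians than brain arrays, and centring each array on its median moved the median of all probe sets by 0.32 for liver minus cerebellum, by 0.41 for liver minus brainstem and by 0.09 for cerebellum minus brainstem. With centred values 15 and 14 of the 15 probe sets were called (13 and 12 higher in liver), against 49.2% of all probe sets higher and 36.9% lower for liver minus cerebellum and 49.3% higher and 36.0% lower for liver minus brainstem. No probe set of the family called with the deposited values turned its direction.

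**Figure D2:**
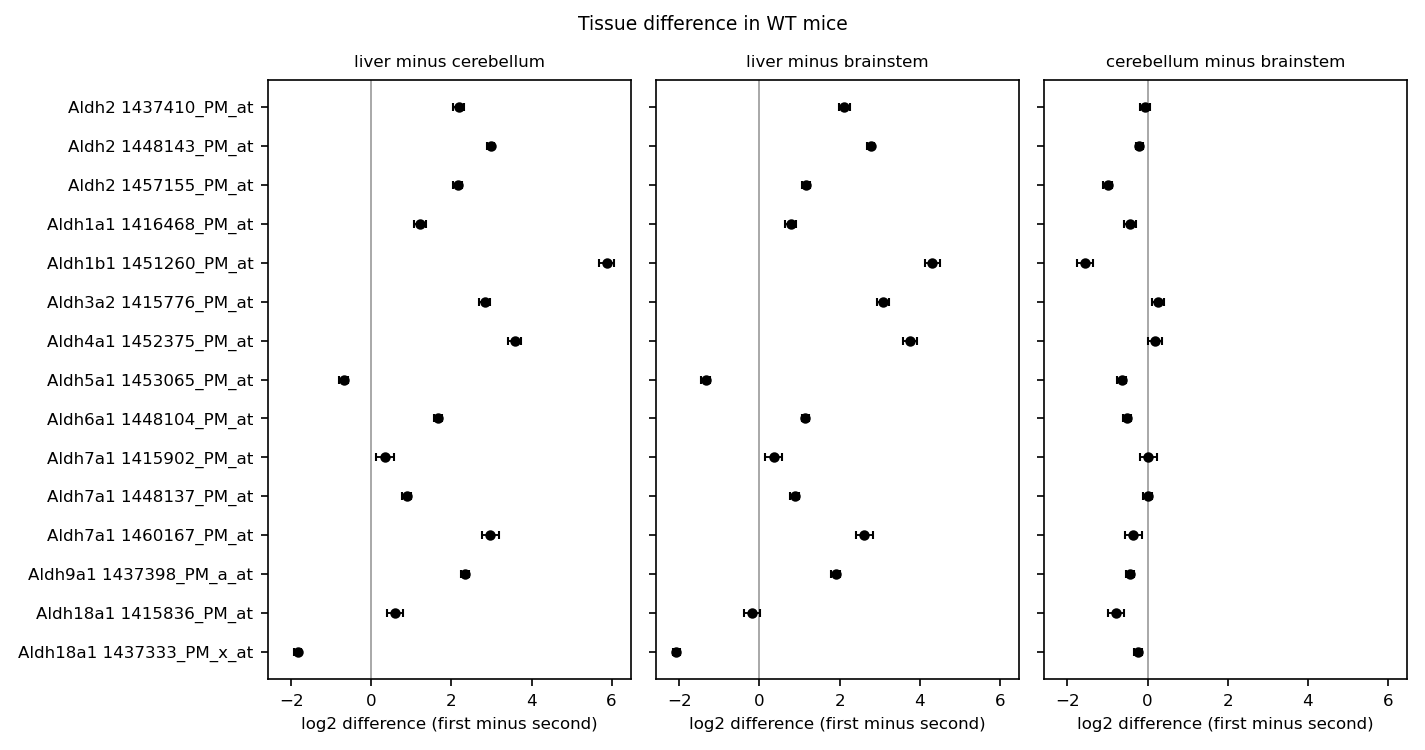
Log2 difference between tissues of WT mice for the 15 probe sets, with standard errors from limma; 4 mice a tissue. Liver lies above both brain regions for most probe sets, most of all for Aldh1b1, while Aldh5a1 and 1 probe set of Aldh18a1 lie below.

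The widest measured difference was that of Aldh1b1, the mitochondrial relative of Aldh2. WT livers had 9.29, 9.86, 8.77 and 9.19, against 3.41, 3.13, 3.55 and 3.52 in WT cerebellum and 5.19, 4.93, 5.04 and 4.68 in WT brainstem. The 3 tissues did not overlap, with liver above cerebellum by 5.87 on the log2 scale (standard error 0.19) and above brainstem by 4.32, and cerebellum below brainstem by 1.56 (adjusted p = 4.2e-07). The level in WT cerebellum was low, with 35.2% of all probe sets lower there, and differences against so low a level can be understated. Aldh4a1, for proline breakdown, was higher in liver by 3.58 than in cerebellum and by 3.76 than in brainstem. Aldh3a2, for fatty aldehydes, was higher in liver by 2.82 and 3.09. Neither of these genes was called between the brain regions, with 0.18 and 0.27 for cerebellum minus brainstem, although the difference of Aldh3a2 passed when only the arrays compared were fitted (adjusted p = 0.0137).

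Aldh9a1, Aldh6a1 and Aldh1a1 were highest in liver, intermediate in brainstem and lowest in cerebellum, as was Aldh1b1, and each step was called. Aldh9a1, of carnitine synthesis, averaged 10.71 ± 0.14 in WT liver, 8.36 ± 0.16 in cerebellum and 8.81 ± 0.14 in brainstem (SD, n = 4 each). Aldh6a1, of valine breakdown, differed by 1.66 for liver minus cerebellum, 1.15 for liver minus brainstem and -0.51 for cerebellum minus brainstem. Aldh1a1, the retinaldehyde dehydrogenase, had the smallest liver excess of these, 1.21 over cerebellum and 0.78 over brainstem, and its step between the brain regions (-0.43, adjusted p = 0.0159) was lost with centred values (-0.34, adjusted p = 0.0624), without WT cerebellum replicate 2 (adjusted p = 0.0525) and without WT brainstem replicate 1 (adjusted p = 0.0524).

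Aldh5a1, which removes the succinic semialdehyde made from GABA, was instead lowest in liver. Its step between the brain regions ran as in those genes (cerebellum minus brainstem -0.65, adjusted p = 5.3e-05 in limma). WT livers had 8.32, 8.05, 7.90 and 8.01, against 8.73, 8.85, 8.70 and 8.76 in cerebellum and 9.51, 9.38, 9.34 and 9.40 in brainstem. No WT liver reached any WT brain sample: liver was below cerebellum by 0.69 (standard error 0.11, adjusted p = 7.4e-06) and below brainstem by 1.34 (adjusted p = 1.7e-10), with -0.38 and -0.93 in centred values, both still called. Aldh5a1 and a probe set of Aldh18a1 were the only members measured lower in liver than in both brain regions by the test.

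The upstream sequences of Aldh1b1, with the widest measured excess in liver, and of Aldh5a1, lower in liver by its 1 probe set, are shown from the RefSeq promoter table for GRCm38.p6, 250 bases before the annotated start, read 5′ to 3′ on the gene's strand. Capitals mark CCAAT (a box near many promoters) and GGGCGG (a GC box), each searched on both strands; these letters, with TATAAA, were the only ones searched and do not overlap each other.
Aldh1b1, chr4:45798772-45799021, plus strand: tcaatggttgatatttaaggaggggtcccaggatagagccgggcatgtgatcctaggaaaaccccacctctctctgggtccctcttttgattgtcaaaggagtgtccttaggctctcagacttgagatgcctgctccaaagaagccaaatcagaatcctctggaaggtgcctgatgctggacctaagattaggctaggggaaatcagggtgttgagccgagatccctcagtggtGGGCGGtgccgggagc
Aldh5a1, chr13:24937662-24937911, minus strand: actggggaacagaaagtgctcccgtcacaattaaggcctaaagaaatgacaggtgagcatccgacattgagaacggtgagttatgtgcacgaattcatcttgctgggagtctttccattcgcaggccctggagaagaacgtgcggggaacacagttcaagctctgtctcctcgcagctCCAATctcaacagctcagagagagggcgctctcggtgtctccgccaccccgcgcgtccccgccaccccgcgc
The table held promoters of 8 of the 10 members, and those of Aldh2 and Aldh7a1 are not shown. The 8 members had 10 promoters, of which CCAAT was found in 7, GGGCGG in 3 and TATAAA in 0, where 33.8%, 32.7% and 12.4% of the 32851 promoters in the table held these letters. The Aldh1b1 window held 1 GGGCGG and the Aldh5a1 window 1 CCAAT, and this is a description of the letters alone.

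**Figure D3:**
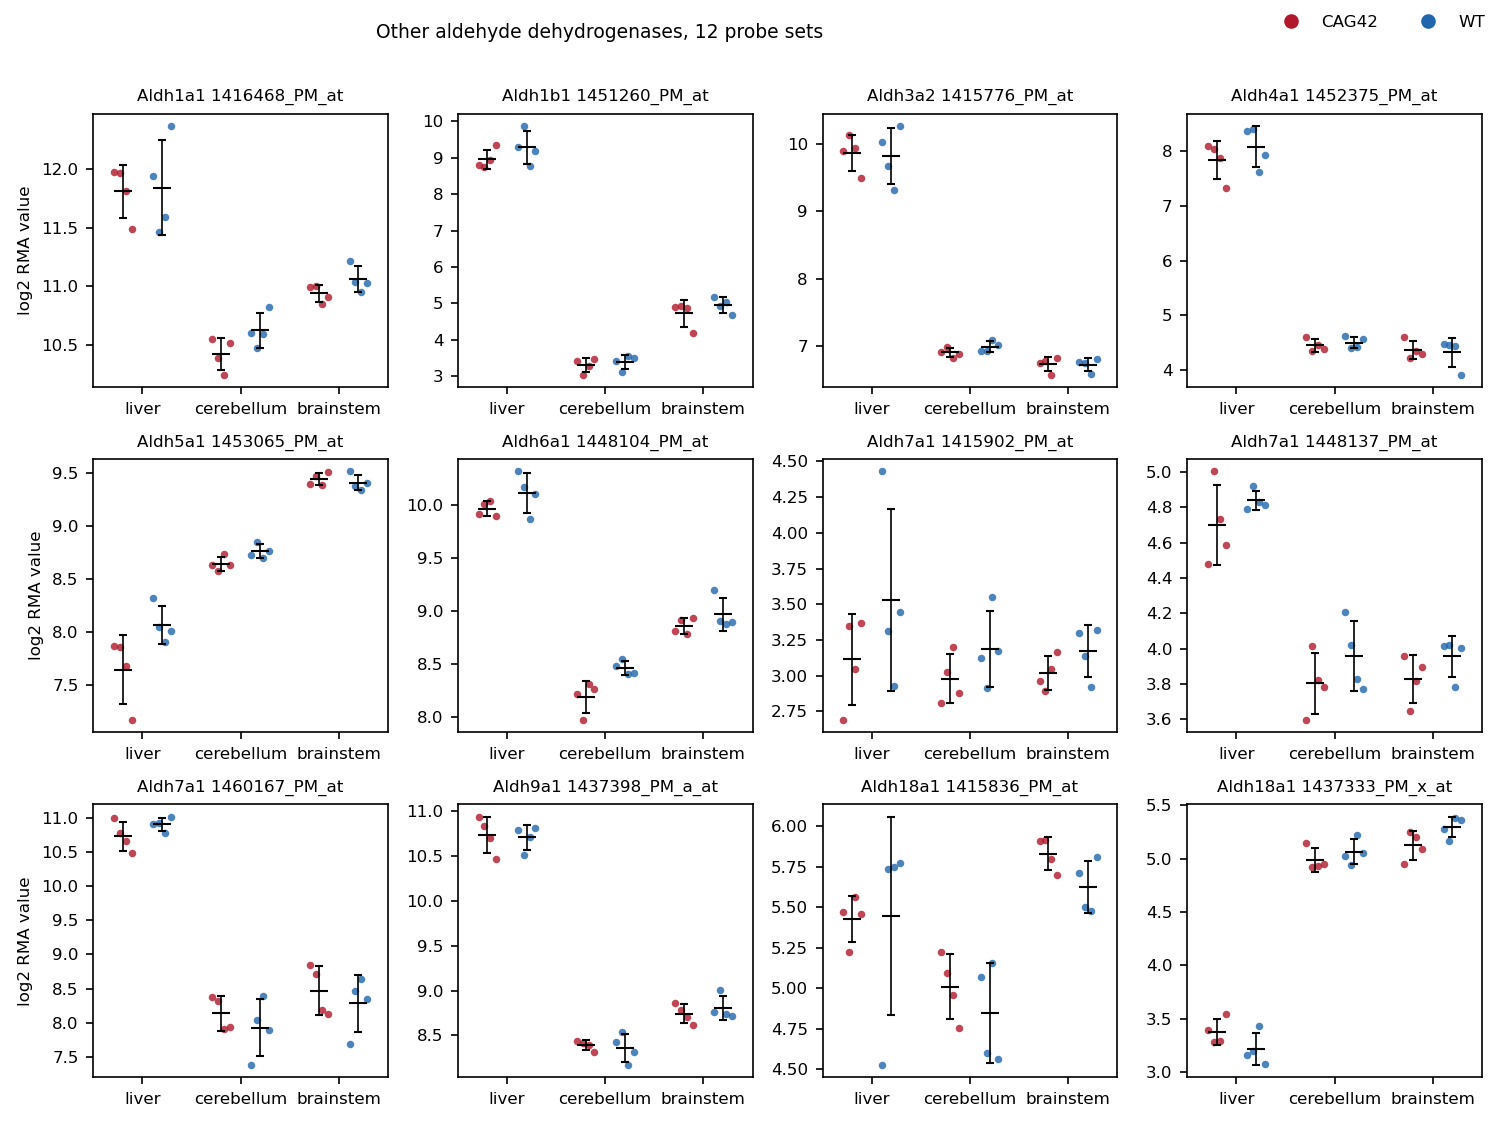
Log2 RMA values of the 12 probe sets of the other 9 genes on every array, by tissue, with CAG42 mice (red) left of WT mice (blue); points are mice, bars the mean and SD of 4. Tissues stand further apart than genotypes in nearly every panel, and 1 low WT liver widens the error of Aldh18a1 1415836_PM_at.

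Like those of Aldh2, the probe sets of Aldh18a1 and Aldh7a1 differed from each other across tissues. Aldh18a1, which starts proline synthesis, was lower in liver by 1437333_PM_x_at, with 3.16, 3.20, 3.43 and 3.08 in WT liver, against 5.03, 4.94, 5.22 and 5.06 in cerebellum and 5.27, 5.17, 5.38 and 5.36 in brainstem. By 1415836_PM_at, which stands for its RefSeq transcript, liver was instead above cerebellum by 0.60 (adjusted p = 0.00914) and differed from brainstem by -0.18 (adjusted p = 0.417). WT liver replicate 1 had 4.53 there and the others 5.73 to 5.77, and without that array the differences were 0.90 and 0.13. The call against cerebellum was lost when only the arrays compared were fitted (adjusted p = 0.0809). The directions against cerebellum were therefore opposite in the 2 probe sets, and the Aldh18a1 order cannot be given for the gene as a whole.

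The 3 probe sets of Aldh7a1, of lysine breakdown, agreed in direction but not in size. The brightest, 1460167_PM_at, averaged 10.90 ± 0.10 in WT liver, 7.93 ± 0.42 in cerebellum and 8.29 ± 0.42 in brainstem (SD, n = 4 each), so that liver was higher by 2.97 and 2.62. By 1448137_PM_at liver was higher by 0.88 than either brain region, and by 1415902_PM_at by 0.34 and 0.36, which were not called (adjusted p = 0.147 and 0.128). That last pair rested on WT liver replicate 1, without which they were 0.04 and 0.06, while without WT liver replicate 3 they were called, at 0.54 and 0.56. With centred values they were called as well, at 0.66 (adjusted p = 0.00956) and 0.77 (adjusted p = 0.00315). Between the brain regions 1460167_PM_at differed by -0.36 (adjusted p = 0.170), a difference that was called with the replicate number as a block (adjusted p = 0.0404) and without WT brainstem replicate 1 (-0.56, adjusted p = 0.0260).

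Between cerebellum and brainstem, 9 of the 15 probe sets were called and all 9 were lower in cerebellum, against 47.0% of all probe sets called (18.8% higher, 28.2% lower). Their median over the 15 was -0.36, against -0.07 over all. Of the 12 probe sets outside Aldh2, 7 were called, all lower in cerebellum. With centred values 6 of the 15 were called, again all lower in cerebellum, against 23.1% higher and 22.2% lower of all. The smallest of these calls besides that of Aldh2 was Aldh18a1 1437333_PM_x_at (-0.23, adjusted p = 0.0452), which was lost with centred values (-0.14, adjusted p = 0.270) and in 11 of the 24 fits that left out 1 array (adjusted p up to 0.134).

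The tissue differences of CAG42 mice ran mostly in the same direction, though not always at the same size. All 15 probe sets had the same direction in CAG42 as in WT mice for liver minus cerebellum and for liver minus brainstem, and 12 of 15 for cerebellum minus brainstem, where the other 3, Aldh2 1437410_PM_at, Aldh7a1 1415902_PM_at and Aldh7a1 1448137_PM_at, ran from -0.04 to 0.02 in CAG42 and from -0.06 to 0.02 in WT mice. For liver minus cerebellum, Aldh1b1 had 5.64 in CAG42 and 5.87 in WT mice. For liver minus brainstem, Aldh5a1 had -1.79 in CAG42 and -1.34 in WT mice.

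None of the 9 genes other than Aldh2, whose genotype values have no test here, changed between CAG42 and WT mice by the test. In liver, cerebellum and brainstem, 0 of 12 probe sets of the other 9 genes were called in limma, where 0.147%, 0.0444% and 0.0155% of all probe sets were. At an unadjusted p under 0.05 there was 1 in liver, 1 in cerebellum and 0 in brainstem, with no background share given. Their differences ran from -0.42 to 0.16 in liver, from -0.27 to 0.21 in cerebellum and from -0.23 to 0.20 in brainstem, with standard errors of 0.094 to 0.22. The medians were -0.14, -0.09 and -0.09, against -0.01 in each tissue over all probe sets, and 9, 9 and 7 of the 12 were below 0.

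**Figure D4:**
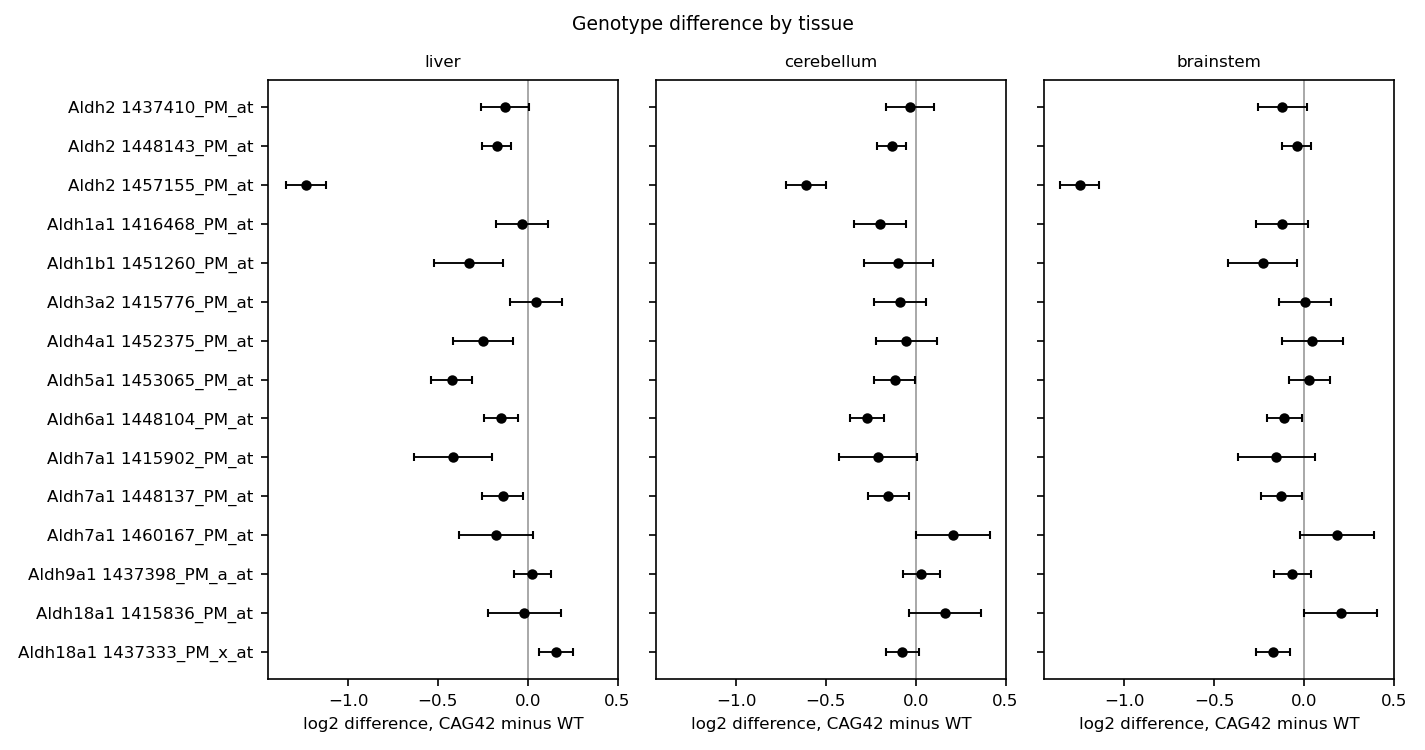
Log2 difference of CAG42 minus WT mice in each tissue for the 15 probe sets, with standard errors from limma; 4 mice a group. Aldh2 1457155_PM_at lies at -1.23, -0.61 and -1.25 in liver, cerebellum and brainstem, and every other probe set lies between -0.42 and 0.21. The Aldh2 differences are a description without a test.

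Among these genes Aldh5a1 in liver came nearest to a call. Its values were 7.86, 7.86, 7.68 and 7.17 in CAG42 livers, against 8.32, 8.05, 7.90 and 8.01 in WT livers. All CAG42 livers were below all WT livers, though the gap was small, and the difference of -0.42 (standard error 0.11) did not pass the adjustment (adjusted p = 0.183 in limma). The gene had -0.12 in cerebellum and 0.03 in brainstem. Without WT liver replicate 1 the liver difference was -0.34 (adjusted p = 0.0760), in a fit in which 6.39% of all probe sets were called in liver.

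Aldh6a1 in cerebellum was the other gene without overlap. CAG42 mice had 8.22, 7.97, 8.31 and 8.26, against 8.48, 8.55, 8.40 and 8.41 in WT mice. The difference was -0.27 (standard error 0.096), with an unadjusted p of 0.00983 and an adjusted p of 1.00 in limma. In all, 1 of 12 probe sets was below WT without overlap in liver and 1 of 12 in cerebellum, where 1.81% and 2.23% of all probe sets were, and 0 of 12 in brainstem, where 2.14% were.

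Aldh1b1 was lower by 0.33 in CAG42 livers, by 0.10 in cerebellum and by 0.23 in brainstem, none of them called. Aldh4a1 had -0.25 in liver and Aldh6a1 -0.15. Aldh3a2 and Aldh9a1 had 0.05 and 0.03 in liver, and Aldh1a1 had -0.03. Aldh7a1 had -0.42 in liver by 1415902_PM_at, which was -0.12 without WT liver replicate 1. By 1448137_PM_at and 1460167_PM_at it had -0.14 and -0.18. Aldh18a1 had -0.02 in liver by 1415836_PM_at, which was -0.32 without that array, and 0.16 by 1437333_PM_x_at. The genotype difference itself was not called to vary between tissues for any of the 12 probe sets: 0 of 12 passed for liver minus cerebellum, liver minus brainstem and cerebellum minus brainstem, against 0.00888%, 0.00888% and 0.00222% of all, and 0, 2 and 0 had an unadjusted p under 0.05. The 2 were Aldh5a1 (-0.45, adjusted p = 0.991) and Aldh18a1 1437333_PM_x_at (0.33, adjusted p = 1.00), both for liver minus brainstem.

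The pathways in which the members act were followed through 10 lists of related genes, of whose 90 genes 78 were measured. Between genotypes 1 of them was called, in liver, where 0.147% of all probe sets were (0.0444% in cerebellum and 0.0155% in brainstem). It was Abat, the GABA transaminase, which works immediately before Aldh5a1. CAG42 livers had 10.43, 10.09, 10.14 and 10.09 by 1433855_PM_at, against 10.87, 10.80, 10.64 and 10.77 in WT livers. The groups did not overlap, and Abat fell by 0.59 on the log2 scale in CAG42 livers (standard error 0.087, adjusted p = 0.00295). It differed by -0.18 in cerebellum and -0.07 in brainstem, without a call. In cerebellum the groups did not overlap either, with 10.38 in the highest CAG42 and 10.39 in the lowest WT mouse. Of all probe sets, 2.23% were below WT without overlap in cerebellum and 1.81% in liver. Its other, dim probe set, 1422226_PM_at, had -0.05 in liver. The call was lost when liver arrays alone set the spread (adjusted p = 1.00), a fit in which no probe set of the array was called in liver, and it held in the other 30 alternatives.

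**Figure D5:**
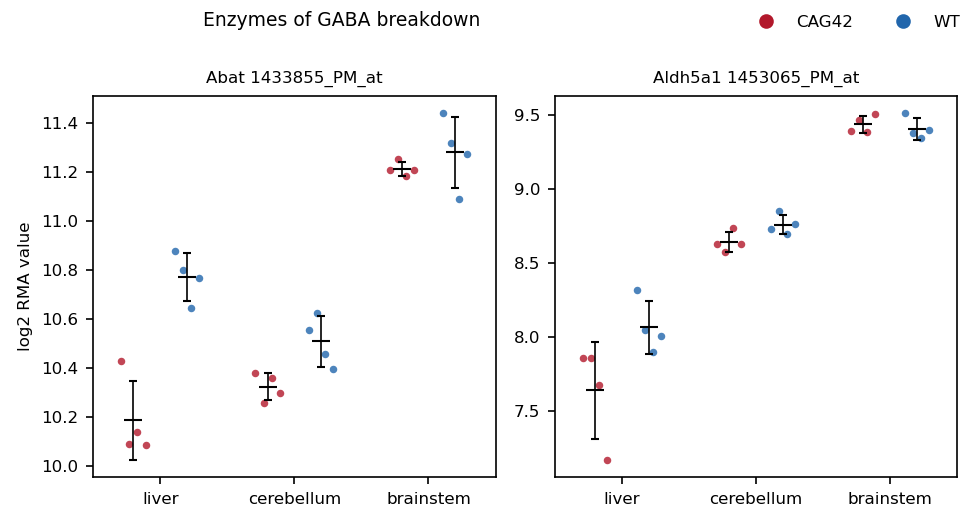
Log2 RMA values of Abat and Aldh5a1, successive enzymes of GABA breakdown, on every array, by tissue, with CAG42 mice (red) left of WT mice (blue); points are mice, bars the mean and SD of 4. In liver the genotypes do not overlap in either gene, by -0.59 in Abat (called) and -0.42 in Aldh5a1 (not called, small gap). Abat does not overlap in cerebellum either, by -0.18 without a call. Both genes are higher in brainstem than in cerebellum.

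No other gene of the 7 measured in the GABA shunt list was called, and the list's median was -0.14 in liver, -0.15 in cerebellum and -0.00 in brainstem. In liver of CAG42 mice the valine breakdown list, the pathway of Aldh6a1, had 0 of 9 genes called, all 9 below 0 and a median of -0.29, where the median of all probe sets was -0.01; 4 had an unadjusted p under 0.05. The lowest p in it were those of Dbt, a subunit of the branched-chain keto acid dehydrogenase (-0.36, adjusted p = 0.179), and Acad8, isobutyryl-CoA dehydrogenase (-0.39, adjusted p = 0.360). The lysine breakdown list, the pathway of Aldh7a1, had 0 of 5 called, all 5 below 0, 3 at an unadjusted p under 0.05 and a median of -0.28, with Gcdh, glutaryl-CoA dehydrogenase, at -0.28 and Aadat at -0.34. In the proline and ornithine list 0 of 5 were called, 2 had an unadjusted p under 0.05 and 4 were below 0, with Oat, ornithine aminotransferase, at -0.48 and Prodh, the proline oxidase ahead of Aldh4a1, at -0.31. In cerebellum and brainstem the medians of the valine, lysine and proline lists lay between -0.10 and 0.05. The share of all probe sets at an unadjusted p under 0.05 is not given here. Counts at that threshold, among the members, the cell type markers and all lists, therefore have no background to be read against. The lists were chosen with earlier results of these data known, and no list was tested as a whole.

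No gene of the lists outside amino acid breakdown was called between genotypes. Among 10 further aldehyde dehydrogenases 0 were called in any tissue, with medians of -0.09 in liver, 0.00 in cerebellum and 0.02 in brainstem, and 1, 0 and 2 had an unadjusted p under 0.05. Aldh1a7 had 0.44 in brainstem (unadjusted p = 0.00719, adjusted p = 1.00). Of 13 alcohol and aldehyde converting enzymes 0 were called, with 0 in liver, 1 in cerebellum and 1 in brainstem at an unadjusted p under 0.05, and the median in liver was -0.01. The 9 genes of the Nrf2 and lipid peroxidation list, which defends against the kind of aldehydes that ALDH2 clears, had a median of 0.06 in liver, with 0 called and 1 at an unadjusted p under 0.05. In the retinoic acid list, the widest difference was that of Cyp26b1, which degrades retinoic acid, at -0.96 in liver (adjusted p = 0.321), where its SD was 0.74 in CAG42 and 0.85 in WT livers. Carnitine synthesis and fatty aldehyde genes had 0 of 4 and 0 of 6 called, with 1 and 0 at an unadjusted p under 0.05 in liver.

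Most, though not all, of these lists were mainly higher in liver. In WT mice all 9 valine breakdown genes and all 5 lysine breakdown genes were called higher in liver than in cerebellum and than in brainstem, with medians of 1.68 and 1.54 for valine and 5.42 and 5.71 for lysine. Of all probe sets, 37.3% and 34.3% were called higher in liver (49.2% and 49.3% with centred values). Of the 13 alcohol and aldehyde converting enzymes, 12 were called higher in liver than in cerebellum and 10 higher than in brainstem, with 1 lower in each. Other lists were mixed: against brainstem, 6 of the 10 further aldehyde dehydrogenases were higher in liver and 4 lower, as were 6 and 4 of 10 retinoic acid genes, 5 and 3 of 9 Nrf2 and lipid peroxidation genes and 3 and 2 of 6 fatty aldehyde genes. The GABA shunt was divided, with 4 of 7 higher and 3 lower in liver than in cerebellum, and 2 higher and 4 lower than in brainstem.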

How the data were processed

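Total RNA of cerebellum, brainstem and liver of 4 CAG42 and 4 WT mice each was hybridised to Affymetrix mouse arrays. The authors deposited RMA values on the log2 scale, background-corrected, quantile-normalized and summarised per probe set; the submitters' processing notes name RMA and R 2.7.0. The sources used here do not give whether the tissues were normalized together. Of 45141 probe sets, 104 controls were left out, and 28898 named 1 gene, 551 several and 15588 none. Arrays were grouped by their labels. A model of group means over all 24 arrays was fitted in limma 3.58.1 (R 4.3.3) with moderated statistics, and p-values were adjusted by Benjamini-Hochberg over 45037 probe sets in each comparison; a call is an adjusted p under 0.05. Related genes were represented by their brightest probe set. Figures were drawn with matplotlib 3.10.9. The fit was tested on simulated data. The labels do not say whether replicates differ in more than the mouse, so that p-values measure the spread between these samples, and their number limits the precision.

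The members, the lists and the rule for named genes (all members; of each list the called genes, otherwise up to 2 with the lowest p in a tissue; the 5 probe sets most like each Aldh2 probe set) were chosen with earlier results of these data known. A test of Aldh2 in liver had been planned and was replaced by a description, since the same probe set led to the choice of the gene. Labels and methods name different RNA kits and array versions. Cerebellum and brainstem arrays with the same replicate number deviated together (r of 0.224 to 0.331 in CAG42 mice and 0.262 to 0.375 in WT mice, 8 of 8 pairs), so that the numbers pair these tissues; this comes from the data, as the labels do not state it. Alternatives were a fit of the compared arrays alone, a replicate block, fixed or random, a filter on dim probe sets, centring, quantile normalization within tissue, array weights, gene means, a minimum change and leaving out each array. Arrays of mice aged 6 months were not analysed here.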

Additional observations from a re-analysis of the deposited data

Results flagged for a closer look

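Of 90 groups of 4 arrays, 7 held 1 array far from the other 3; chance alone gives such an array in about 1 group in 20. In CAG42 brainstem, Aldh1b1 had 4.19 in replicate 4 and 4.88 to 4.94 in the others, and in CAG42 cerebellum Aldh18a1 1437333_PM_x_at had 5.15 in replicate 1 and 4.92 to 4.95 in the others. In WT brainstem, Aldh4a1 had 3.92 in replicate 4 (others 4.44 to 4.47), Aldh6a1 had 9.20 in replicate 1 (others 8.88 to 8.90), Aldh7a1 1448137_PM_at had 3.78 in replicate 3 (others 4.0 to 4.02) and Aldh9a1 had 9.01 in replicate 2 (others 8.72 to 8.76). In WT liver, Aldh18a1 1415836_PM_at had 4.53 in replicate 1 (others 5.73 to 5.77), the array that correlated least with the rest of the livers.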

How the results depend on the processing

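Between CAG42 and WT mice, the 12 probe sets outside Aldh2 had 0 calls in each tissue under 9 alternatives, and for the difference of the genotype effect between tissues 0 under the 2 alternatives run, with 0 to 0 over the fits without 1 array. With the fixed replicate block the genotype counts were 0. The tissue counts were 14 of 15 for liver minus cerebellum, 13 for liver minus brainstem and 9 for cerebellum minus brainstem. Besides the 2 calls between the brain regions given above for Aldh2 and Aldh7a1, the block changed no call of a member. For tissue comparisons it joined arrays of the same genotype and number. For genotype differences within a tissue it joined CAG42 and WT arrays of the same number, an arbitrary grouping, since these did not pair. The tissue counts ran from 14 to 15, from 13 to 14 and from 7 to 9 without 1 array. Of the single differences between tissues without 1 array, 1051 kept their side of the threshold, 26 lost a call and 3 gained one. Cerebellum minus brainstem had 1 call when a log2 difference of at least 1 was required, by that requirement's construction. Averaging the 2 probe sets of Aldh18a1 turned the liver minus cerebellum difference of 1415836_PM_at to -0.62, since the probe sets have opposite signs. The 1 call of the lists in liver, Abat, became 0 with the liver arrays alone; the cause was not tested. With those arrays alone the calls over all probe sets in liver were 0, against 66 in the fit over 24 arrays, 28 with the replicate block and 2878 without WT liver replicate 1. Between liver and the brain regions the r of 16 same-numbered pairs of arrays ran from 0.0417 to 0.285, over 0.1 in 11, and 15 of 16 matched best with their own number, which is a hint of shared mice from the data, not the design; between CAG42 and WT mice of a tissue they did not pair. The filter on dim probe sets left 11 of the 15 probe sets, and Aldh2 1457155_PM_at was among those removed. Probe sets of low level, such as Aldh1b1 and Aldh2 1457155_PM_at in cerebellum, can understate changes.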
